A study of Mus with 4 samples.

Results

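Heterogeneous nuclear ribonucleoproteins (hnRNPs) are RNA-binding proteins that coat newly made transcripts and take part in their splicing, export, stability and translation. A set of 9 genes of this kind was examined in newborn mouse hearts, namely *Hnrnpr*, its close paralog *Syncrip* (hnRNP Q), *Hnrnpa1*, *Hnrnpa2b1*, *Hnrnpk*, *Hnrnpc*, *Hnrnpu*, *Hnrnpl* and *Hnrnpd*. The members were chosen by gene ID out of 55487 IDs, and *Hnrnpr* heads the set because its values were lower in both miR-187 libraries. The values of *Hnrnpr* are therefore given as a description with no test. The other 8 are related genes, and the set was put together with earlier results of these data known, so their p-values are no independent evidence. All 9 had a mean of at least 1 FPKM (fragments per kilobase, scaled to each library's mapped total) over the libraries, the level above which genes were tested, and so were among the 14325 genes tested.

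The libraries came from heart tissue at postnatal day 0 (P0), with 2 from wild-type (WT) mice and 2 from mice overexpressing miR-187. MicroRNAs such as miR-187 pair with messenger RNAs and reduce their translation or stability. In the knock-in line of the study, on a C57BL/6J background, the exogenous miR-187 sits at the *Rosa26* locus and is driven by the *Tek* (*Tie2*) promoter, which limits it to endothelial cells; miR-187 itself was not measured in these libraries. The labels do not give the zygosity of the miR-187 animals, whereas the methods name homozygous animals and also speak of cardiac endothelial cells where the labels name heart. The study used animals of both sexes, but the sex and the number of animals behind each library were not given in the sources used here, and nothing in the labels says that replicates were separate animals, so p-values measure the spread between these libraries only. In such bulk samples, fewer cells of a type and less RNA per cell cannot be told apart. The tissue could not be checked against marker genes, because gene names are not paired with the IDs.

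The deposited values hold no counts, so library depth is unknown, and error can be judged only from the spread between the 2 libraries of a group. The limma fit drew most of each gene's error from the trend over all tested genes (prior degrees of freedom 19.5), not from the gene alone. Standard errors were thus alike at 0.380 for *Hnrnpl* and 0.456 for *Hnrnpu*, whose own within-group SDs were 0.050 and 0.783 on the log2 scale. The sum of FPKM ranged from 750826 to 807359 over the libraries, and IDs with at least 1 FPKM numbered from 13270 to 17047. miR-187 replicate 2 stood apart in 16 tested genes that reached 10 FPKM and exceeded all other libraries 10 times or more, against 4 such genes in WT replicate 2 and 0 in each replicate 1. The values of *Hnrnpr* are given below with and without this library. Over all tested genes the median difference between miR-187 and WT was -0.044 on the log2(FPKM + 1) scale, and limma called 0.00698% of genes at an adjusted p under 0.05.

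The product of *Hnrnpr*, hnRNP R, is found in the nucleus and the cytoplasm and is best known from motor neurons, where it binds the mRNA of beta-actin and associates with the survival motor neuron protein. In the RefSeq annotation of GRCm38.p6, the assembly that corresponds to the mm10 build named in the submitters' processing notes, *Hnrnpr* lies on chromosome 4 from 136310942 to 136345981, a span of 35.0 kb with 19 annotated transcripts. Its span overlaps 0 other RefSeq genes. The nearest genes are *Zfp46*, which ends 17.0 kb before it, and the long noncoding RNA 9130020K20Rik, which starts 1.3 kb after it. The values of these neighbours were not analysed here, since their IDs were not paired with names.

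*Hnrnpr* (ENSMUSG00000066037.14) stood at 12.9 and 14.7 FPKM in the WT libraries (replicates 1 and 2, the order kept below). In the miR-187 libraries it stood at 3.04 and 2.33 FPKM. Both miR-187 libraries thus lay below both WT libraries, and replicates of a group lay close together. The WT mean of 13.8 ± 1.29 FPKM was 5.15 times the miR-187 mean of 2.68 ± 0.496 FPKM (SD, n = 2 each). Between the nearest libraries of the groups, WT replicate 1 and miR-187 replicate 1, the ratio was 4.26. The difference in log2(FPKM + 1) was -2.01, with a standard error of 0.35 from the limma fit that is no test of a gene chosen on these values. The added 1 FPKM makes the difference smaller than the ratio of the means. Libraries of replicate 1 differed by -1.79 and those of replicate 2 by -2.24. Without miR-187 replicate 2, the library that stood apart, it was -1.87.

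Among the 14325 genes tested, 11 had a log2 difference at or below that of *Hnrnpr*, itself included, and 16 were higher in miR-187 by at least the same size. When the gap between the groups was taken instead, as the ratio of the lowest WT to the highest miR-187 value after adding 1 FPKM, 2 genes including *Hnrnpr* had a gap of at least 3.45. In the opposite direction 0 genes had such a gap. A log2 difference of -1 or less was found for 0.817% of tested genes, and nothing is read from the place of *Hnrnpr* among them, since the choice of the gene used this contrast.

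**Figure D1:**
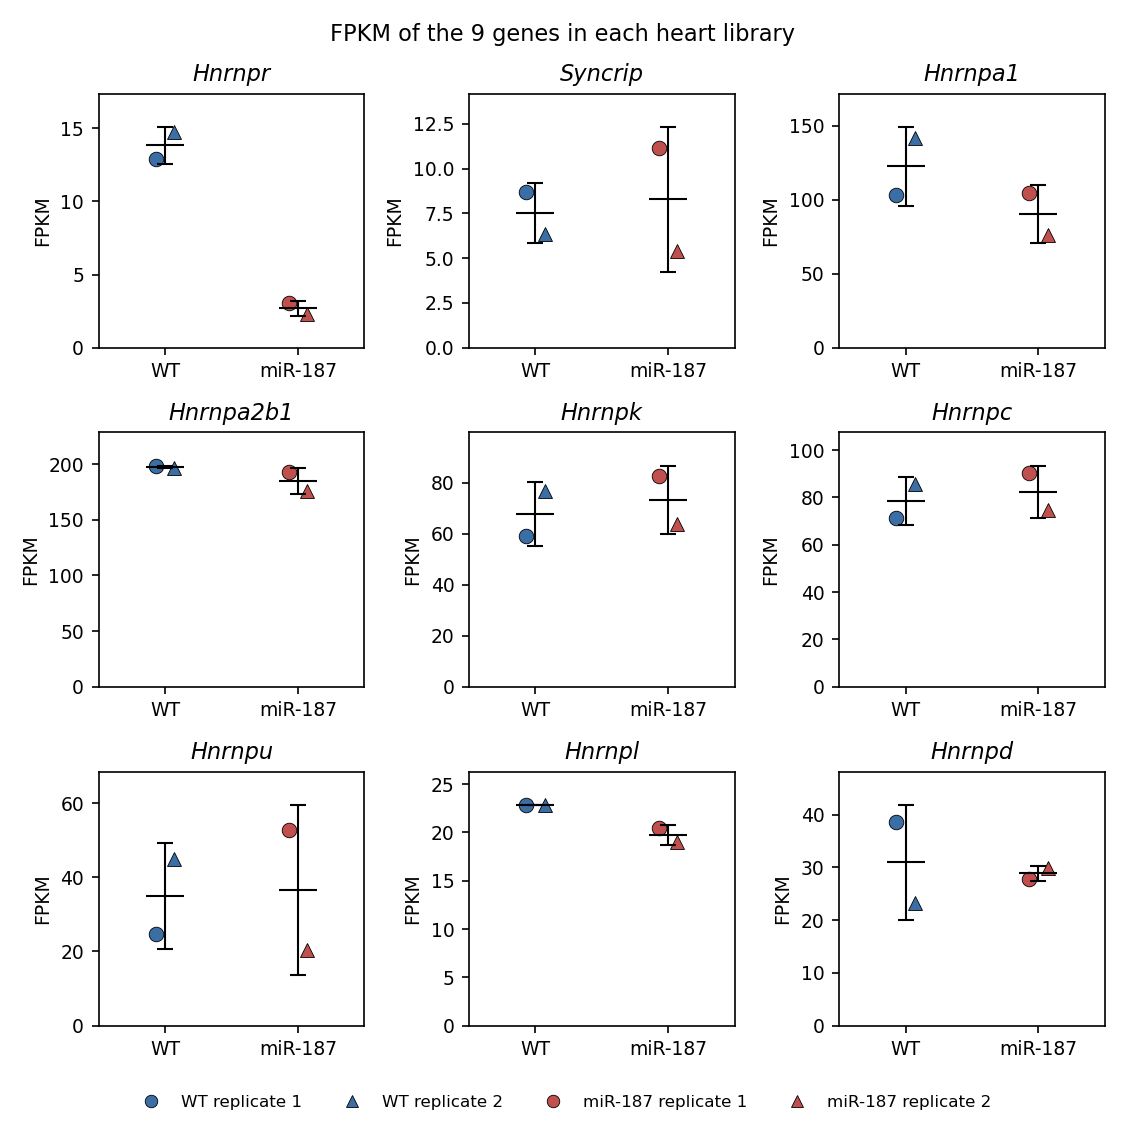
FPKM (linear axes from 0, one scale per gene) of each of the 9 genes in WT and miR-187 heart libraries. Circles and triangles are replicates 1 and 2, the horizontal bar is the group mean and the whiskers are 1 SD (n = 2 each). *Hnrnpr* was at 12.9 and 14.7 FPKM under WT and at 3.04 and 2.33 FPKM under miR-187, while the other genes overlapped between groups except *Hnrnpa2b1* and *Hnrnpl*, which lay slightly lower in miR-187.

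*Syncrip* (ENSMUSG00000032423.12) encodes hnRNP Q, the closest relative of hnRNP R, which acts in mRNA transport, translation and turnover. It lies on another chromosome, 9, from 88449364 to 88482591 (GRCm38.p6). *Syncrip* measured 8.70 and 6.34 FPKM in the WT libraries and 11.2 and 5.42 FPKM in the miR-187 libraries. The groups overlapped, with both the highest and the lowest value in the miR-187 libraries. The log2 difference was 0.066, with a 95% interval from -0.74 to 0.87 and an adjusted p of 1.00 (limma). Replicate 1 was above replicate 2 in both groups.

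The levels of the paralogs were then set against each other within each library, where scaling between libraries plays no part. *Hnrnpr* was 1.48 and 2.32 times *Syncrip* in WT, and 0.272 and 0.430 times *Syncrip* in miR-187. The order of the paralogs was thus opposite in the groups, with *Hnrnpr* above *Syncrip* in both WT libraries and below it in both miR-187 libraries. *Hnrnpr* made up 64.8 ± 7.19% of the summed FPKM of the pair in WT and 25.7 ± 6.14% in miR-187 (SD, n = 2 each). Because *Hnrnpr* was chosen for its low miR-187 values, this is a description as well. The sum of the paralogs was 21.6 and 21.1 FPKM in WT, against 14.2 and 7.76 FPKM in miR-187. The sum was lower in both miR-187 libraries than in either WT library. Whether reads were shared between the paralogs was not tested.

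**Figure D2:**
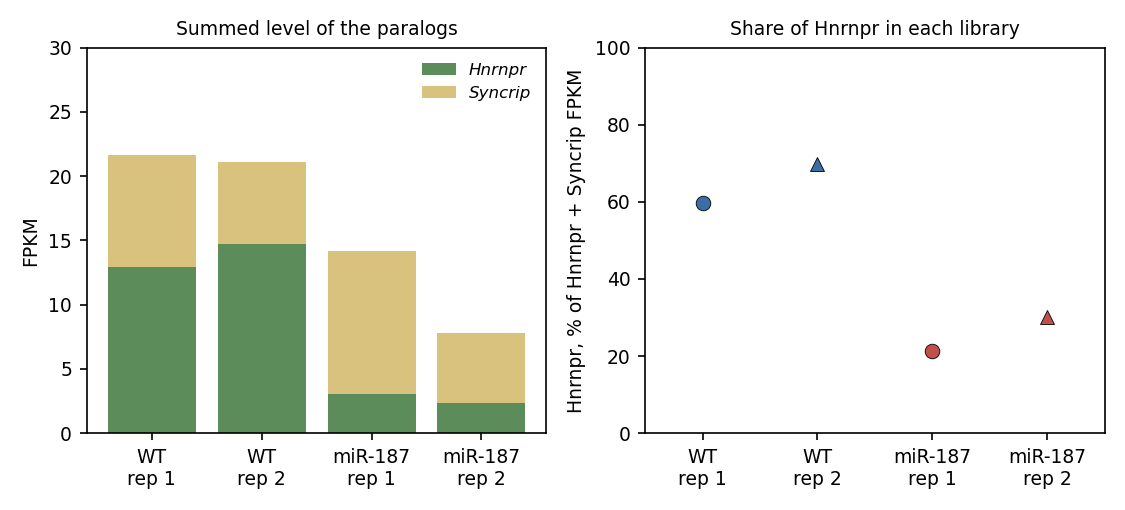
Left, FPKM of *Hnrnpr* (green) and *Syncrip* (yellow), stacked, in each of the 4 libraries. Right, *Hnrnpr* as a percentage of the summed FPKM of both genes in each library, from 59.7 and 69.9% in WT to 21.4 and 30.1% in miR-187 (circles replicate 1, triangles replicate 2).

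The most abundant members were the A and B proteins, which bind AG-rich motifs and act on exon choice and mRNA transport. *Hnrnpa2b1* (ENSMUSG00000004980.16), the highest of the 9 genes in every library, measured 198 and 197 FPKM in the WT libraries and 193 and 176 FPKM in the miR-187 libraries. The groups did not overlap, but the miR-187 mean was 0.934 times the WT mean, with a log2 difference of -0.099 (95% interval -0.97 to 0.77). With quantile normalization the difference was 0.062, in the opposite direction. *Hnrnpa1* (ENSMUSG00000046434.16), the second most abundant in every library, measured 104 and 142 FPKM in the WT libraries and 104 and 76.3 FPKM in the miR-187 libraries. The replicate 1 libraries were nearly equal, and the groups overlapped narrowly. Its log2 difference was -0.44 (95% interval -1.31 to 0.44; adjusted p of 1.00, limma). It was -0.66 without WT replicate 1 or without miR-187 replicate 1, and -0.21 without WT replicate 2 or without miR-187 replicate 2. RefSeq also lists pseudogenes named after *Hnrnpa1*, and a sharing of reads with such copies would make its values uncertain.

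*Hnrnpc* and *Hnrnpk* came next in level. The hnRNP C proteins stay in the nucleus and bind uridine-rich stretches of pre-mRNA, and hnRNP K binds cytidine-rich sequence through KH domains. *Hnrnpc* (ENSMUSG00000060373.15) measured 71.2 and 85.7 FPKM in the WT libraries and 90.2 and 74.7 FPKM in the miR-187 libraries. *Hnrnpk* (ENSMUSG00000021546.18) measured 59.0 and 76.7 FPKM in the WT libraries and 82.7 and 63.7 FPKM in the miR-187 libraries. In both genes WT replicate 2 and miR-187 replicate 1 were above the other libraries, and the groups overlapped. Their log2 differences were 0.070 (95% interval -0.78 to 0.92) and 0.11 (95% interval -0.74 to 0.96). Both turned below 0 without WT replicate 1 (-0.062 and -0.077) or without miR-187 replicate 1 (-0.064 and -0.077). They were 0.20 and 0.29 without WT replicate 2 or without miR-187 replicate 2.

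*Hnrnpu* (ENSMUSG00000039630.10), which encodes a nuclear scaffold protein that also binds chromatin and is required for normal splicing in mouse heart muscle, had the widest spread within groups of the 9 genes. It measured 24.8 and 45.0 FPKM in the WT libraries and 52.9 and 20.5 FPKM in the miR-187 libraries. The values of each group spanned a wide range, with the higher replicate 1.81 times the lower in WT and 2.58 times the lower in miR-187. Its within-group SD of 0.78 on the log2 scale was above that of 96.8% of tested genes. The group means were alike at 34.9 ± 14.3 and 36.7 ± 22.9 FPKM (SD, n = 2 each), yet the log2 interval ran from -0.96 to 0.93 and leaves room for a difference in either direction. The mean log2 difference of -0.017 became 0.020 with median centring, 0.033 with trimmed mean of M-values (TMM) factors and 0.049 with quantile normalization. With 1 library left out, the difference moved far more, from -0.68 to 0.65.

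*Hnrnpl* encodes a splicing regulator that binds CA repeats, and *Hnrnpd* encodes AUF1, which binds AU-rich elements and promotes the decay of many mRNAs. *Hnrnpl* (ENSMUSG00000015165.16) measured 22.8 and 22.9 FPKM in the WT libraries and 20.4 and 19.0 FPKM in the miR-187 libraries. These groups did not overlap, and the WT libraries were almost equal. The difference was small, with a log2 value of -0.20 (95% interval -0.99 to 0.58; adjusted p of 1.00, limma). *Hnrnpd* (ENSMUSG00000000568.15) measured 38.7 and 23.3 FPKM in the WT libraries and 27.8 and 29.9 FPKM in the miR-187 libraries. Both miR-187 values lay between the WT values, and the log2 difference was -0.057 (95% interval -0.89 to 0.78). The difference was 0.30 without WT replicate 1 and -0.41 without WT replicate 2.

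**Figure D3:**
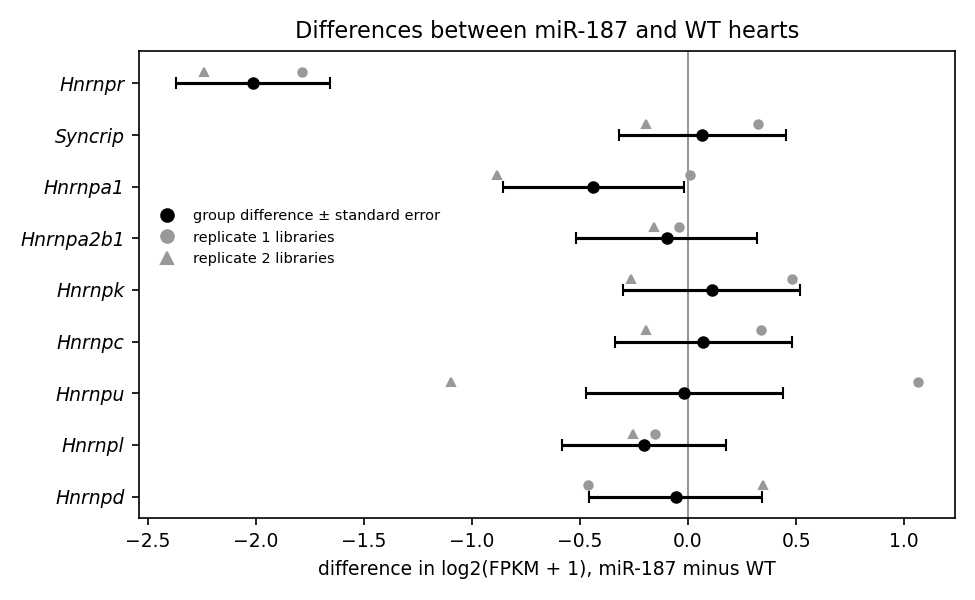
Difference in log2(FPKM + 1), miR-187 minus WT, for the 9 genes. Black points are group differences with 1 standard error of the limma fit, drawn largely from the spread of all tested genes and no test for *Hnrnpr*. Grey circles and triangles are the differences within the replicate 1 and replicate 2 libraries. *Hnrnpr* lies at -2.01, whereas the other 8 genes lie between -0.44 and 0.11, and for 6 of these 8 the replicate pairs lie on opposite sides of 0, farthest apart for *Hnrnpu* (1.06 and -1.10).

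Across the other 8 genes, limma called 0 at an adjusted p under 0.05, against 0.00698% of all tested genes, and 0 had an unadjusted p under 0.05, against 3.12% of all tested genes. With 8 genes, counts of 0 do not set the members apart from these shares. Of these genes, 5 had a log2 difference under 0 and 3 above 0, with a median of -0.037 beside -0.044 for all tested genes. Their smallest adjusted p over the alternative settings was 0.997. Without miR-187 replicate 2, their log2 differences ran from -0.21 (*Hnrnpa1*) to 0.65 (*Hnrnpu*), and 0 were called. With 2 libraries against 2, an exact permutation test of a single gene cannot give a p below 0.333, and none was used. Groups did not overlap for 3 of the 9 genes, *Hnrnpr*, *Hnrnpa2b1* and *Hnrnpl*, all lower in miR-187, against 13.2% of tested genes lower without overlap. *Hnrnpr* was chosen on this contrast, and without it the count is 2 of 8. Without overlap in the other direction were 0 members, against 12.3% of tested genes.

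The order of levels, which FPKM allows since it is per length, was compared next. From the top, it ran *Hnrnpa2b1*, *Hnrnpa1*, *Hnrnpc* and *Hnrnpk* in all 4 libraries. *Hnrnpc* and *Hnrnpk* had means over the libraries of 80.5 and 70.5 FPKM. The gap between these means was no larger than the SD of either gene within a group (10.3 to 13.4 FPKM). The values of both moved together, however, and *Hnrnpc* was above *Hnrnpk* within every library. *Hnrnpu* and *Hnrnpd* exchanged the 5th and 6th places between libraries and did not differ beyond their spread. *Hnrnpl* was 7th in every library. *Hnrnpr* was 8th and *Syncrip* 9th in WT, and the places were exchanged in miR-187.

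Set against all tested genes of the same library, *Hnrnpr* stood at percentiles 80.4 and 79.2 in WT and at 39.5 and 37.5 in miR-187. *Syncrip* ranged from percentile 62.1 to 75.6 over the 4 libraries. The lowest value of the remaining genes was percentile 84.5, for *Hnrnpl* in miR-187 replicate 2.

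**Figure D4:**
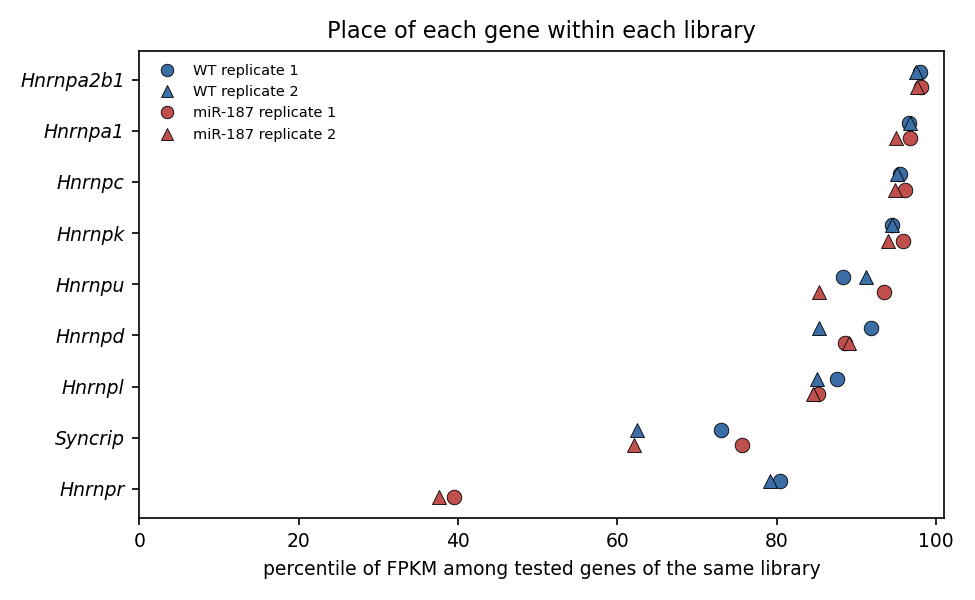
Percentile of each gene's FPKM among the 14325 tested genes of the same library, with genes ordered by their mean percentile. Blue marks WT and red miR-187, circles replicate 1 and triangles replicate 2. *Hnrnpr* stands at 80.4 and 79.2 in WT and at 39.5 and 37.5 in miR-187, while each of the others keeps to a narrower range.

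The summed level of the set did not separate the groups. The summed FPKM of the 9 genes was 540 and 613 in WT and 585 and 468 in miR-187, and the groups overlapped. *Hnrnpa2b1* alone held between 32.1% and 37.6% of this sum. *Hnrnpr* held 2.39% and 2.40% of it in WT, and 0.519% and 0.499% in miR-187. These shares were closer between replicates than the FPKM of *Hnrnpr* itself. The ratio of *Hnrnpr* to each of the other 8 genes was higher in both WT libraries than in both miR-187 libraries, and the lowest WT ratio was from 2.88 (against *Hnrnpu*) to 5.24 (against *Hnrnpk*) times the highest miR-187 ratio. All 8 ratios share the numerator that was chosen for its low miR-187 values.

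The order of the libraries was then described for each member. In *Hnrnpa1*, *Hnrnpk*, *Hnrnpc* and *Hnrnpu*, 4 of the 9 genes, WT replicate 2 and miR-187 replicate 1 were both above WT replicate 1 and miR-187 replicate 2, an order found for 27.6% of tested genes. miR-187 replicate 2 was the lowest library for 5 of the 8 genes other than *Hnrnpr*, and for 39.1% of tested genes, so nothing particular to the members is read from either count. Likeness of pattern was measured as the Euclidean distance between log2(FPKM + 1) values centred on each gene's mean over the 4 libraries. The closest pairs were *Hnrnpa2b1* with *Hnrnpl*, at a distance of 0.108, and *Hnrnpk* with *Hnrnpc*, at 0.112. The distances between the 8 genes other than *Hnrnpr* reached 1.49 (*Hnrnpu* with *Hnrnpd*). Those of *Hnrnpr* from them, from 1.59 to 2.18, follow from the low miR-187 values for which it was chosen.

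By the same measure, the 5 tested genes most like *Hnrnpr* lay at distances from 0.490 to 0.834 and were all lower in both miR-187 libraries. The nearest, ENSMUSG00000087354.1, measured 1.96 and 2.24 FPKM in the WT libraries and 0.132 and 0.0146 FPKM in the miR-187 libraries. The next, ENSMUSG00000006456.10, had 2.73 and 1.82 FPKM in WT and was listed at 0 in both miR-187 libraries, which can be a failed estimate. Both had lower levels than *Hnrnpr*, where the added 1 FPKM shrinks differences more, so their likeness depends on that setting. The distances were not measured with another pseudocount. Nothing is known here of the names of these genes. With 4 libraries, such likeness amounts to a low value in both libraries of 1 group.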

How the data were processed

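Messenger RNA libraries of 4 heart samples were sequenced with paired reads. The authors deposited 1 table of FPKM values for 55487 versioned Ensembl gene IDs. The submitters' processing notes name HISAT2, StringTie, DESeq2 and mm10; versions, annotation and strand setting are not given in the sources used here. FPKM is relative to the mapped total of each library, so abundant transcripts can lower all other values, and reads of near-identical or overlapping genes can be misassigned. The values came in no whole-read steps.

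IDs that averaged 1 FPKM or more over the libraries were put on the log2(FPKM + 1) scale and compared between groups with limma 3.58.1 in R 4.3.3 (lmFit, eBayes with a mean-variance trend). P-values were two-sided and adjusted over all 14325 genes by the Benjamini-Hochberg method. Intervals are 95% intervals of the limma fit, whose error comes largely from the trend over all tested genes. The procedure was tested on simulated data. Trimmed mean of M-values (TMM) factors were computed from the FPKM values, and plotting used matplotlib 3.10.9 (Python 3.11.15). The members and lists were chosen with earlier results of these data known. All members were named. Of the 5 genes most like *Hnrnpr* in pattern, 2 are given by ID, and its nearest gene on each side is given by symbol only. The RefSeq table of 49997 genes held 0 Ensembl IDs, so positions of members were matched by symbol, and 6 lists of other RNA-binding and splicing genes and 8 marker lists were not analysed here. Alternatives covered a pseudocount of 0.1 FPKM, the filter (0.1 FPKM, 5 FPKM, none), scaling (median centring, TMM, quantile normalization), the variance model (no trend, robust), a replicate block and leaving out each library.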

Additional observations from a re-analysis of the deposited data

How the results depend on the processing

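The filters, eBayes without a trend, robust eBayes and the replicate block cannot move a difference of group means, so 4 settings with all libraries bear on direction and size (the pseudocount and the scalings). The log2 difference of *Hnrnpr*, whose direction its choice fixes, was -2.01 and ran from -2.33 (pseudocount of 0.1 FPKM, which shrinks low values less) to -1.97 with all libraries, and from -2.15 to -1.87 when 1 library was left out. The *Hnrnpr* share of the paralog sum, miR-187 minus WT, was -39.1 percentage points with all libraries and from -44.2 to -34.0 when 1 was left out.

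Of the other 8 genes, 0 were called under any alternative. Under the 4 settings that can move them, direction changed in 4 of 32 values. These were *Hnrnpu*, at 0.020 with median centring, 0.033 with TMM factors and 0.049 with quantile normalization, and *Hnrnpa2b1*, at 0.062 with quantile normalization. With 1 library left out, direction changed in 9 of 32 values, and the differences ran from -0.39 to 0.53 for *Syncrip*, from -0.66 to -0.21 for *Hnrnpa1*, from -0.16 to -0.035 for *Hnrnpa2b1*, from -0.25 to -0.15 for *Hnrnpl*, from -0.077 to 0.29 for *Hnrnpk*, from -0.064 to 0.20 for *Hnrnpc*, from -0.68 to 0.65 for *Hnrnpu* and from -0.41 to 0.30 for *Hnrnpd*.

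Over all genes, limma called 0 higher and 1 lower. The counts were 31 and 15 with a minimum mean of 0.1 FPKM and 4 and 2 with robust eBayes. With a minimum mean of 5 FPKM, without a filter and with quantile normalization, 0 were lower; the causes were not tested. Adding a replicate block raised the counts to 33 higher and 18 lower. Deviations of same-numbered libraries correlated at r = -0.0675 across 14325 genes, and the libraries were treated as unpaired. With 1 library left out, the lone library of a group was assumed to vary like the others, and between 11 and 62 genes were called higher and between 14 and 56 lower. The extremes came without miR-187 replicate 2 (11 and 14), without miR-187 replicate 1 (62 higher) and without WT replicate 1 (56 lower). Limits set by depth are unknown here. Alternatives for the lists of other RNA-binding genes were not run, for want of names.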
